A study of Homo sapiens with 16 samples.

Results

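The cytosolic ribosome is built from ribosomal RNA and a fixed set of ribosomal proteins, and the genes of these proteins were followed here through 8 lists of N6-methyladenosine (m6A) peaks. Members were the protein-coding genes of GENCODE whose symbol starts with RPL or RPS and a digit, or is RPSA. The RPS6K kinases, the L1 paralogs, 3 readthrough loci and RPS19BP1, which encodes no ribosomal protein, were left out. The rule gave 81 genes of 20033 protein-coding genes, with 47 in the large subunit and 34 in the small subunit. Their exons held 98 of the 191974 peaks in the 8 lists, and their gene bodies held the strongest summit of 35 of the 36970 regions in the merged list.

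The lists came from MeRIP-seq, in which fragmented RNA is pulled down with an antibody against m6A and sequenced beside unenriched input RNA. C4-2B is a human prostate cancer line that responds to enzalutamide, and MDV-R is the resistant line made from it by serial exposure to enzalutamide, a hormone-pathway drug used in prostate cancer. Each line had 4 immunoprecipitated (IP) and 4 input libraries, all taken at day 3 and labelled wild type, so that the 16 libraries formed 4 groups of 4. Peaks were called in every IP library against input, which gave 4 lists per line, numbered here as the replicates are. By the methods MDV-R was kept in medium with enzalutamide, so resistance and the drug itself cannot be told apart, and both are single established lines. MDV-R titles hold a further line name, T24R2, and grouping went by the cell line field. The luminal prostate genes KLK3 and KLK2 held exonic peaks in both lines, and of 6 genes typical of the bladder line in the titles (AXL, CAV1, CAV2, CD44, VIM and UPK2) 2 did in C4-2B and 1 in MDV-R. Nothing in the labels states that replicates were separate cultures, and p-values therefore measure only the spread between these libraries. The lists held 13191 to 30645 peaks, with the fewest in C4-2B 1 and the most in MDV-R 4.

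Ribosomal protein mRNAs are among the most abundant mRNAs of growing cells. Most are short, are spliced from many small exons and begin with a 5′ terminal oligopyrimidine (TOP) tract, through which growth signals control their translation. m6A is placed by the METTL3-METTL14 methyltransferase at adenosines within the DRACH motif, of which GGAC is the most common core, and it is found mostly in long internal exons and around stop codons. Exon junction complexes are known to keep the methyltransferase away from the ends of exons, and mRNAs with short exons carry little of the mark.

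Exonic peaks were scarce in the ribosomal protein genes. A peak summit lay in an exon of 18 of the 81 genes in at least 1 list (22.2%, 95% Wilson interval 14.5 to 32.4%), beside 50.2% of all protein-coding genes. A peak in all 8 lists was found in 4 members (4.94%), RPL28, RPL30, RPL37 and RPS29, beside 26.6% of all genes. In C4-2B 1 to 4 the members with an exonic peak numbered 6, 10, 11 and 10, and in MDV-R 1 to 4 they numbered 11, 10, 10 and 16. These counts were 7.41 to 19.8% of the members, where 29.0 to 43.7% of all genes had a peak in the same lists. Members minus all genes gave -25.6 ± 2.27 percentage points (SD, n = 8), below 0 in 8 of 8 lists. Intervals of this kind cover counting error only, and genes without a call include those whose reads were too few or not unique.

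The subunits differed in their counts. Large subunit genes held 15 of the 18 members with a peak (31.9% of 47, Wilson interval 20.4 to 46.2%), and small subunit genes held RPS24, RPS29 and RPS6 (8.82% of 34, Wilson interval 3.05 to 23%). These intervals overlap, and no test was run between the subunits. The median longest exon had 464 nt in large and 216 nt in small subunit genes. The 63 members without any exonic peak included RPL10A, RPL10L, RPL11, RPL12, RPL14, RPL15, RPL17, RPL18, RPL19, RPL21, RPL22, RPL23, RPL23A and RPL24. RPL11, which binds MDM2 when ribosome assembly is disturbed, and RPL22, which also acts outside the ribosome, were thus both without an exonic summit. RPLP0, RPLP1, RPLP2, FAU and RACK1, components of the ribosome that the name rule does not reach, had no exonic peak in any list.

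**Figure D1:**
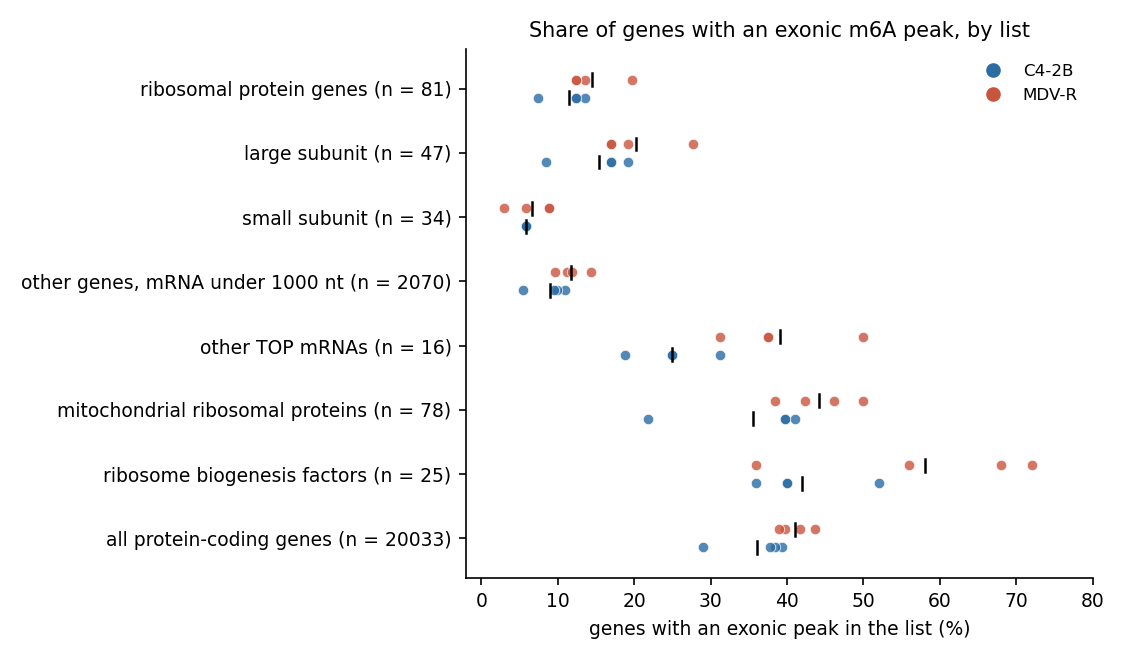
Each point is 1 peak list (C4-2B blue, MDV-R red) and gives the percentage of the genes of a set that held an exonic peak summit in that list; black ticks are the means of 4 lists. Ribosomal protein genes lay between 7.41 and 19.8%, beside 29.0 to 43.7% for all protein-coding genes and 5.41 to 14.3% for other genes with an mRNA under 1000 nt. The sets were not filtered by expression.

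The 18 genes fell into those called in nearly every list and those called in few. RPL13A, RPL36AL and RPS24 were each called in 7 lists, RPL10 and RPL27A in 6, and RPL13 in 5. RPL37A was called in 3 C4-2B lists and RPL41 in 3 MDV-R lists, and RPL3L and RPS6 were called in 2 lists each. RPL29, RPL31, RPL36 and RPL4 had an exonic peak in MDV-R 4 alone, the longest list. Calls in both lines were found for 11 members, in C4-2B alone for RPL37A, and in MDV-R alone for RPL29, RPL31, RPL36, RPL4, RPL41 and RPS6. The MDV-R-alone genes were 33.3% of the 18 members, where 14.1% of all 10057 genes with a peak were called in MDV-R alone, and 4 of these 6 genes rested on MDV-R 4.

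**Figure D2:**
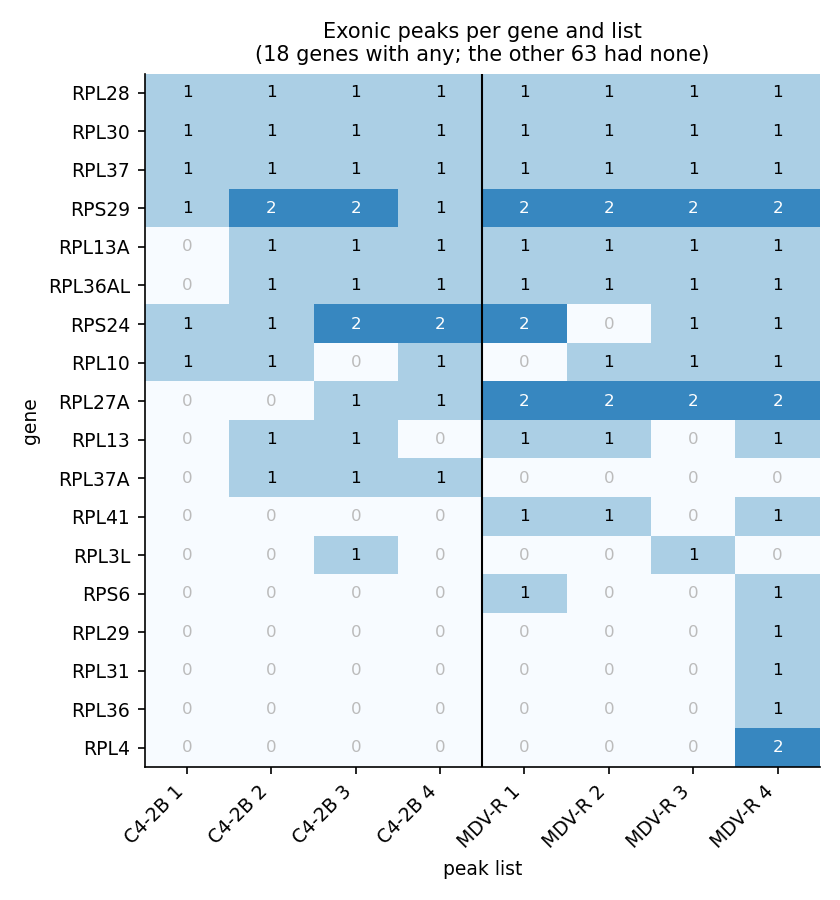
Rows are the 18 ribosomal protein genes with an exonic peak, columns the 8 peak lists, and each number counts the exonic summits of the gene in that list. RPL28, RPL30, RPL37 and RPS29 have a summit in every column, and RPL29, RPL31, RPL36 and RPL4 only in MDV-R 4.

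The sequences under exonic regions called in 4 or more lists are shown because they hold, or lack, the core at which m6A is placed. Each is 30 nt of hg38 read 5′ to 3′ on the strand of the gene, and the capitals mark the GGAC nearest to the strongest summit of the region or, where none lay within 50 nt of it, the nearest of the cores GAAC, AGAC and AAAC.
RPL28, chr19:55387498-55387527, plus strand: ttcctagactaagGGACtggcctgagtgag
RPL10, chrX:154398298-154398327, plus strand: cccgtcttcgacaGGACtctatggttctta
RPL13A, chr19:49491871-49491900, plus strand: cctggaatgtacgGGACccaggggcagcag
RPL13, chr16:89563041-89563070, plus strand: aaagccctcctggGGACttggaatcagtcg
RPL36AL, chr14:49619072-49619101, minus strand: gtcaacgtacctaAAACccgaagaaccttc
RPL37, chr5:40827899-40827928, minus strand: aagcacagggcaaAGACactgcataacctc
RPS29, first region, chr14:49577673-49577702, minus strand: gggtaactggtggAAACacagaggtattaa
RPL27A, first region, chr11:8688036-8688065, plus strand: atactggttcaggAAACtggtttgggaagg
RPL27A, second region, chr11:8689219-8689248, plus strand: agggtgcgtttaaGAACagtgggcgtggcc
The first 4 hold GGAC 34, 41, 16 and 48 nt from the strongest summit, and in RPL28, RPL10 and RPL13 it is followed by T. The strongest summit is that of 1 library. Over the lists the summits of these regions spanned 286, 515, 32 and 56 nt, so the distance differs between libraries. RPL36AL, RPL37, the first RPS29 region and both RPL27A regions hold no GGAC within 50 nt of the strongest summit. The second RPS29 region, called in 7 lists, held none of the 4 cores in its window, and the RPL30 region, with GGAC in its window, is not printed. GGAC lay within 50 nt of the strongest summit in 8 of the 18 exonic regions. Some core of the 4 lay in the window of 87.3% of all exonic summits, so that its presence separates little.

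Counted over single peaks, GGAC stood within 50 nt of 44 of the 98 member summits (44.9%) and of 47.2% of all exonic summits, searched on the gene's strand and without regard to splicing. Averaged over lists the member share was 43.9 ± 11.3% and the share of all exonic summits 47.3 ± 1.21% (SD, n = 8). Members minus all summits gave -3.42 ± 12 percentage points, below 0 in 5 of 8 lists, and this lay within the spread of the lists. GGACT stood at 10.2% of member summits and 16.9% of all exonic summits, and GGAC on the opposite strand stood at 18.4% and 28.0%.

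Member summits lay more often in 3′UTRs and less often in coding sequence than the exonic summits of all genes. Of the 98 summits, 48 were in a 3′UTR (48.98%, beside 29.96% of all exonic summits), 20 in coding sequence (20.4%, beside 55.7%), 14 in a 5′UTR and 16 in a non-coding exon. All 98 summits came from 18 genes and are not independent. The mRNA that Ensembl takes as canonical for the gene carried 47 of the 98 summits, in 11 genes. The remaining 51 lay on exons of other transcripts, and 7 genes (RPL10, RPL28, RPL30, RPL31, RPL37A, RPS24 and RPS29) had none on the canonical mRNA. On the canonical mRNA 32 of the 47 summits lay after the stop codon, and 18 lay within 200 nt of it. Another gene had an exon at 22 of the 98 summits, and peaks carry no strand, so reads of such genes cannot be told apart.

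RPL37 and RPL27A carried their peaks far down long 3′UTRs. The canonical RPL37 mRNA has 7573 nt, of which 7245 nt are 3′UTR, and the strongest summit lay 4574 nt after the stop codon in the region chr5:40827557-40828190. Fold enrichment at RPL37, the ratio of IP to local background at the summit, was 6.56, 10.3, 10.1 and 6.62 in C4-2B 1 to 4 and 11.4, 21.8, 7.56 and 16.6 in MDV-R 1 to 4. The lines overlapped, with MDV-R 3 inside the C4-2B range. RPL27A, whose canonical mRNA has 4535 nt, held a peak 2247 nt after the stop codon (chr11:8687907-8688273) and another 3431 nt after it (chr11:8689010-8689422). The nearer RPL27A peak was called in MDV-R 1 to 4 alone, at fold enrichments of 5.72, 10.3, 4.16 and 9.85. The farther RPL27A peak was called in C4-2B 3 and 4 at 5.09 and 4.20 and in MDV-R 1 to 4 at 5.79, 9.10, 5.47 and 7.20.

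RPL13 and RPL13A carried their peaks just after the stop codon. RPL13A, a large subunit protein with a second role in the translational control of inflammatory mRNAs, was called in 7 lists, and its strongest summit lay 58 nt after the stop codon. Fold enrichment at RPL13A was low, at 1.53, 1.67 and 1.67 in C4-2B 2 to 4 and 2.88, 3.37, 1.76 and 4.62 in MDV-R 1 to 4. Every MDV-R value lay above the C4-2B values, and C4-2B 1 had no call. The local background there was 391, 377 and 384 times the base background of its list in C4-2B 2 to 4 and 192, 188, 317 and 121 times in MDV-R 1 to 4. RPL13 was called at 1.59 and 1.52 in C4-2B 2 and 3 and at 2.60, 2.40 and 3.27 in MDV-R 1, 2 and 4, and its strongest summit lay 65 nt after the stop codon. The base background is what the peak caller takes for a genome without enrichment, and the local background is its estimate of unenriched reads around a summit, so a high multiple stands for many unenriched reads.

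Peaks in coding sequence of the canonical mRNA were found in RPL36AL, RPL41, RPL4, RPL29, RPL36 and RPS6. RPL36AL, an autosomal copy of the X-linked RPL36A, ranked highest of the 18 genes by its exonic peaks, with a mean percentile of 87.3 by −log10 p, and its strongest summit lay 297 nt before the stop codon. Its IP level, the IP reads at the summit in the same multiples, was 681, 675 and 723 times the base background in C4-2B 2 to 4 and 549, 583, 546 and 569 times in MDV-R 1 to 4. The fold enrichment of RPL36AL was 4.10, 2.96 and 4.33 in C4-2B 2 to 4 and 6.37, 9.48, 3.30 and 6.73 in MDV-R 1 to 4, with MDV-R 3 inside the C4-2B range. RPL41, which encodes the shortest protein of the ribosome, was called in MDV-R 1, 2 and 4 at 3.81, 4.33 and 5.05, with the strongest summit 23 nt before the stop codon. RPL4, RPL29 and RPL36 had coding peaks in MDV-R 4 alone, and the strongest of each had a fold enrichment of 2.21, 2.33 and 2.78 over a local background of 169, 139 and 99.0 times the base. RPS6, the substrate of the S6 kinases, was called in MDV-R 1 and 4 at 2.02 and 2.59, with the summit in coding sequence in MDV-R 1 and in a non-coding exon in MDV-R 4. RPS24 held the other coding summits, 1 each in C4-2B 1, 3 and 4 and in MDV-R 1 and 4, on transcripts other than the canonical mRNA.

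At the median, member peaks on canonical mRNAs stood on a high background. Their median local background was 81.6 times the base, beside 10.7 times for all exonic peaks, and their median fold enrichment was 4.33 beside 8.54. Their median IP level was 328 times the base, beside 132 for all exonic peaks, and so at the median these peaks held many reads and little enrichment. RPL37 and RPL27A differed from this. Their backgrounds were 11.1 to 42.7 and 11.1 to 35.7 times the base, with fold enrichments of 6.56 to 21.8 and 4.16 to 10.3. Member peaks on other transcripts had a median background of 14.5 times the base, a median fold enrichment of 6.83 and a median IP level of 130. Over all 98 member peaks the median fold enrichment was 6.09, with a median of 55.5 IP tags (deduplicated reads) at the summit, beside 42 for all exonic peaks. These levels exist at called peaks alone and say nothing of members without a call.

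**Figure D3:**
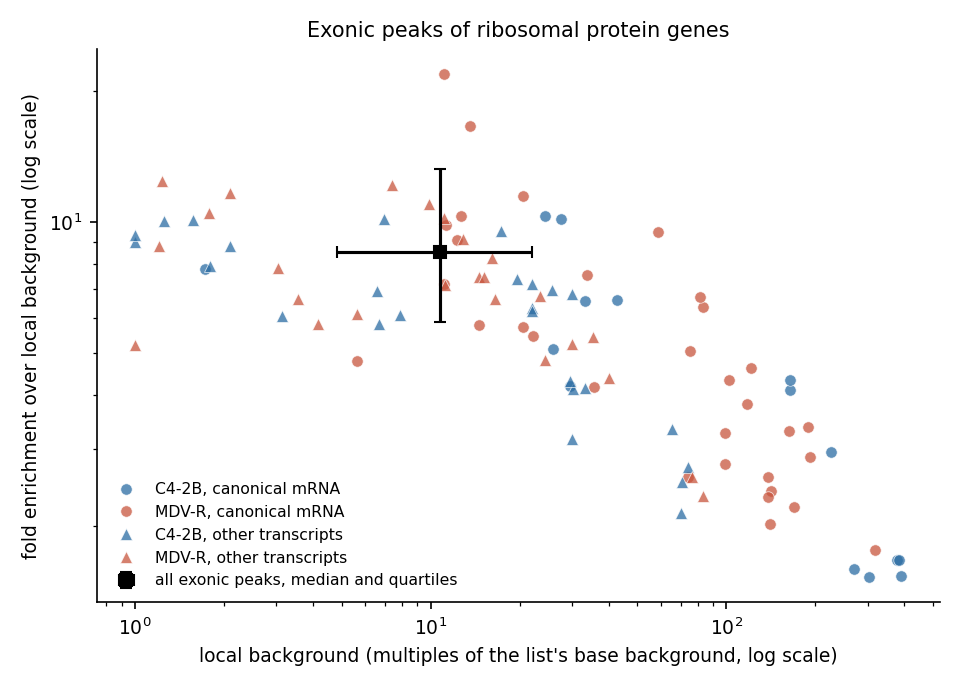
Each point is an exonic peak of a ribosomal protein gene in 1 list, with the local background in multiples of the base background of the list (x, log scale) and the fold enrichment (y, log scale); circles lie on the canonical mRNA and triangles on other transcripts. The black square and bars give the median and quartiles of all exonic peaks (background 10.7, fold enrichment 8.54), and the canonical peaks spread to backgrounds of 391 with fold enrichments down to 1.52.

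RPL28, RPL10, RPL30, RPS29, RPS24 and RPL37A were called on transcripts other than the canonical mRNA. In RPL28 the region chr19:55387332-55387884 had its strongest summit in an intron of the canonical transcript and in the 3′UTR of another isoform. The summit lay in that class in MDV-R 2 and 4, and in a non-coding exon in the C4-2B lists and MDV-R 1 and 3. Fold enrichment at RPL28 was 2.14, 3.35, 2.52 and 2.73 in C4-2B 1 to 4 and 4.37, 5.45, 2.34 and 6.77 in MDV-R 1 to 4, and MDV-R 3 again fell among the C4-2B values. RPL10, a late-joining protein of the large subunit, had a region called in all 8 lists in a non-coding exon (chrX:154397681-154398981), with the strongest summit 105 nt before the start of the canonical transcript and in an exon of the unnamed gene ENSG00000280195. The exonic summits of RPL10 numbered 6 because those of C4-2B 3 and MDV-R 1 fell in an intron. In RPL30 the region lay 760 nt before the canonical start, in the 5′UTR of an extended isoform and in an exon of ENSG00000288752. In RPS29 the region chr14:49577405-49578016 lay in the 3′UTR of an extended isoform, 5913 nt after the canonical end, and shared its summit with the pseudogene RPL32P29. A second RPS29 region, called in 7 lists, lay in a 5′UTR 12265 nt before the canonical start.

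RPS24 and RPL37A had peaks of few IP tags on distant alternative exons. RPS24, a small subunit protein with several splice forms, held 10 exonic summits in 7 lists, none in MDV-R 2 and with 6 to 22 IP tags each. RPL37A was called in C4-2B 2, 3 and 4 at fold enrichments of 8.98, 10.1 and 9.32, over a local background of 1 to 1.57 times the base and 25158 nt after the canonical end. No MDV-R list held an RPL37A call. RPL3L, a paralog of RPL3 used in heart and skeletal muscle, had a call in replicate 3 of each line, at 7.81 in C4-2B and 4.78 in MDV-R.

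Introns took a large part of the member peaks. The share of genic member peaks with an intronic summit was 49.3 ± 3.76%, beside 28.3 ± 3.62% for all genes (SD, n = 8). The member share was higher in 8 of 8 lists, by 21.0 ± 3.63 percentage points, and by 9.24 points with peaks in another gene's exon left out. Of the 35 member regions 18 had the strongest summit in an exon and 17 in an intron, and these 17 lay in 11 genes. Outside the canonical transcript lay 16 of the 17, inside an intron of a longer isoform. Another gene had an exon at 9 of the 17 summits and an intron at 4 more. The first of 4 regions in introns of RPL31, for example, had its summit in coding sequence of TBC1D8, and that of RPS27L, a paralog of RPS27 induced by p53, in coding sequence of LACTB. The region in the intron of RPS4X had its summit in the 3′UTR of PIN4 and was called in C4-2B 1 to 4 at fold enrichments of 13.98, 14.8, 22.2 and 17.1 and in MDV-R 3 and 4 alone, at 6.70 and 7.30. A small nucleolar RNA gene lay inside 1 region, SNORD35A within that of RPL13A.

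The number of member peaks was compared between the lines. The members with an exonic peak averaged 9.25 ± 2.22 in the C4-2B lists and 11.8 ± 2.87 in those of MDV-R (SD, n = 4), a difference of 2.5 genes (exact two-sided permutation p = 0.457, adjusted over 3 measures 0.457). Exonic member peaks numbered 6, 11, 13 and 11 in C4-2B 1 to 4 and 14, 12, 12 and 19 in MDV-R 1 to 4. Their means were 10.2 ± 2.99 and 14.2 ± 3.30 (SD, n = 4), a difference of 4 peaks (exact two-sided permutation p = 0.143, adjusted 0.429). Of all peaks in a list they made up 0.0483 ± 0.00522% on average for C4-2B and 0.0528 ± 0.00881% for MDV-R (SD, n = 4), a difference of 0.00454 percentage points (exact two-sided permutation p = 0.371, adjusted 0.457). None of the 3 measures passed the threshold of 0.05, and the smallest p that 4 against 4 libraries allow is 0.0286. Without MDV-R 4 the differences were 1.08 genes, 2.42 peaks and 0.00148 percentage points, and without C4-2B 1 they were 1.42 genes, 2.58 peaks and 0.00361 points. The difference in the share of peaks was 0.00709 points without C4-2B 3, 0.00261 without MDV-R 1, 0.00741 without MDV-R 2 and 0.0227 when each list was cut to the length of the shortest.

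Among the 35 member regions 9 were called in all 8 lists (25.7%), beside 25.9% of all 36076 called regions. More MDV-R than C4-2B lists held 21 of the regions, more C4-2B lists held 4, and 10 were even, and over all regions the counts were 17932, 6640 and 11504. All lists of 1 line and none of the other held 2 member regions (5.71%), beside 4.9% of all regions, and both were in RPL27A and called in MDV-R (3.68% of all regions were called in MDV-R in this way). The first was the 3′UTR region at chr11:8687907-8688273. The second, chr11:8703084-8703557, lay in an intron of a longer RPL27A isoform and under a non-coding exon of DENND2B. Their Fisher's exact p was 0.0286 each, and 0.584 after Benjamini-Hochberg adjustment over all called regions, of which 0 passed by Fisher's test and 1766 had an unadjusted p below 0.05. Without C4-2B 1 or without MDV-R 3 the count of such member regions was 4.

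IP levels were compared at the 9 regions called in all 8 lists, and 1 of them, in RPL6, passed. The intronic RPL6 region, chr12:112417056-112418646, lay 7949 nt before the canonical start with no other gene at its summit. Its IP level was 67.1, 89.2, 77.2 and 97.3 times the base background in C4-2B 1 to 4 and 66.6, 38.2, 43.8 and 60.2 times in MDV-R 1 to 4. All MDV-R values lay below all C4-2B values, with means of 52.2 ± 13.4 and 82.7 ± 13.3 (SD, n = 4), and the level fell by 0.69 on the log2 scale (SE 0.17, limma adjusted p = 0.00174). The call held without each library in turn (limma adjusted p 0.000148 to 0.0183). An exact permutation test per region gave RPL6 an adjusted p of 0.0903 but cannot decide the call. Its p cannot fall below 0.0286 with 4 against 4 libraries, and after adjustment that value stayed above the threshold, so no region could pass. Over all 9224 regions tested 34.2% passed by limma, 19.6% higher and 14.6% lower in MDV-R. The count of 1 among the 9 regions became 4 after centring each library on its median over all regions. Of all 9224 regions 2303 were then called higher and 2297 lower in MDV-R. The member count was 2 with the replicate number as a block (2019 higher and 1495 lower of all regions). It was 4 without C4-2B 1 (1708 and 2239) and 2 without C4-2B 3 (1740 and 1130).

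The intronic RPL10 region and RPL30 missed the threshold and passed in some of these settings. The intronic RPL10 region, chrX:154393922-154394940, lay 3922 nt before the canonical start with no other gene at its summit. Its IP level was 129, 187, 219 and 201 times the base in C4-2B 1 to 4 and 210, 261, 242 and 234 times in MDV-R 1 to 4. C4-2B 3 lay above MDV-R 1, and the difference was 0.39 on the log2 scale (SE 0.17, limma adjusted p = 0.0679). This region passed after centring (0.33, limma adjusted p = 0.0110), with the replicate block (limma adjusted p = 0.0399) and without C4-2B 3 (0.48, limma adjusted p = 0.0379). At RPL30 all MDV-R values lay below all C4-2B values, with means of 134 ± 8.94 and 170 ± 17.7 times the base (SD, n = 4; log2 difference -0.34, limma adjusted p = 0.0836). RPL30 passed after centring (-0.40, limma adjusted p = 0.0133) and without C4-2B 1 (-0.38, limma adjusted p = 0.0147).

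For RPL37 and RPL28 the IP level was nearly the same in the lines. RPL37 had 236, 279, 309 and 302 times the base in C4-2B 1 to 4 and 270, 309, 275 and 278 times in MDV-R 1 to 4, a difference of 0.0116 on the log2 scale (SE 0.16, limma adjusted p = 0.966). RPL28 averaged 193 ± 31.2 times the base in C4-2B, beside 192 ± 13.1 times in MDV-R (SD, n = 4; log2 difference 0.00813, limma adjusted p = 0.976). RPS29 differed by -0.12 on the log2 scale (limma adjusted p = 0.621) and the exonic RPL10 region by -0.21 (limma adjusted p = 0.348). The exonic RPL10 region passed after centring (-0.26, limma adjusted p = 0.0403) and without C4-2B 1 (-0.31, limma adjusted p = 0.0460), and RPS27L, at -0.22 (limma adjusted p = 0.342), passed without C4-2B 1 (-0.41, limma adjusted p = 0.0159). A p above the threshold does not show equal levels, and after centring RPL28 was at -0.0499 and RPL37 at -0.0464.

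The local background was lower in MDV-R at all 9 regions, and after centring at 8 of them, with RPL6 at 0.00716. Its difference from C4-2B had a median of -0.78 on the log2 scale over the 9 regions and -0.49 over all 9224 regions. Of the 9 regions 0 passed by limma, where 12.9% of all regions passed, 11.2% lower and 1.66% higher in MDV-R. Before adjustment 2 of the 9, the intronic RPL10 region and RPL30, lay under the threshold by limma, beside 2822 of all 9224 regions. After adjustment an exact permutation test per region passed 0 of 9224. At RPL37 the background was 33.2, 24.4, 27.5 and 42.7 times the base in C4-2B 1 to 4 and 20.5, 11.1, 33.8 and 13.6 times in MDV-R 1 to 4, and MDV-R 3 stood among the C4-2B libraries. MDV-R 3 had the highest background of the MDV-R libraries at 7 of the 9 regions, and without it 7 of the 9 passed. Of all 9224 regions 2921 then passed lower and 139 higher in MDV-R, beside 1037 and 153 with all libraries. The ratio of input to IP reads, recovered from the peak statistics, was 0.747 to 1.22 in C4-2B and 1.56 to 3.15 in MDV-R, with the lowest MDV-R value in MDV-R 3. Input depth and line cannot be told apart, and the part of input depth in these backgrounds was not tested.

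Fold enrichment was higher in MDV-R at 8 of the 9 regions and lower at RPL6 (at 6 of the 9 after centring, with the exonic RPL10 region at -0.0267 and RPS27L at -0.16), with a median log2 difference of 0.55, beside 0.44 over all 9327 regions. The region that passed was the intronic RPL10 region. Its fold enrichment was 7.97, 8.45, 19.3 and 19.6 in C4-2B 1 to 4 and 27.6, 28.6, 21.5 and 36.5 in MDV-R 1 to 4. The lines did not overlap, with means of 13.8 ± 6.51 and 28.6 ± 6.14 (SD, n = 4) and a log2 difference of 1.15 (SE 0.36, limma adjusted p = 0.0436). Over all regions 3.63% passed, 3.41% higher and 0.225% lower in MDV-R. The call was lost without C4-2B 1, 2 or 4 or MDV-R 1, 2 or 4 (log2 difference 0.93 to 1.36 over all libraries left out, limma adjusted p up to 0.217). It was also lost after centring each library on its median (0.75, limma adjusted p = 0.153), which turned the split over all regions from 318 higher and 21 lower to 79 higher and 167 lower. Without MDV-R 3, 4 of the 9 regions passed, and of all 9327 regions 2016 passed higher and 74 lower in MDV-R.

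**Figure D4:**
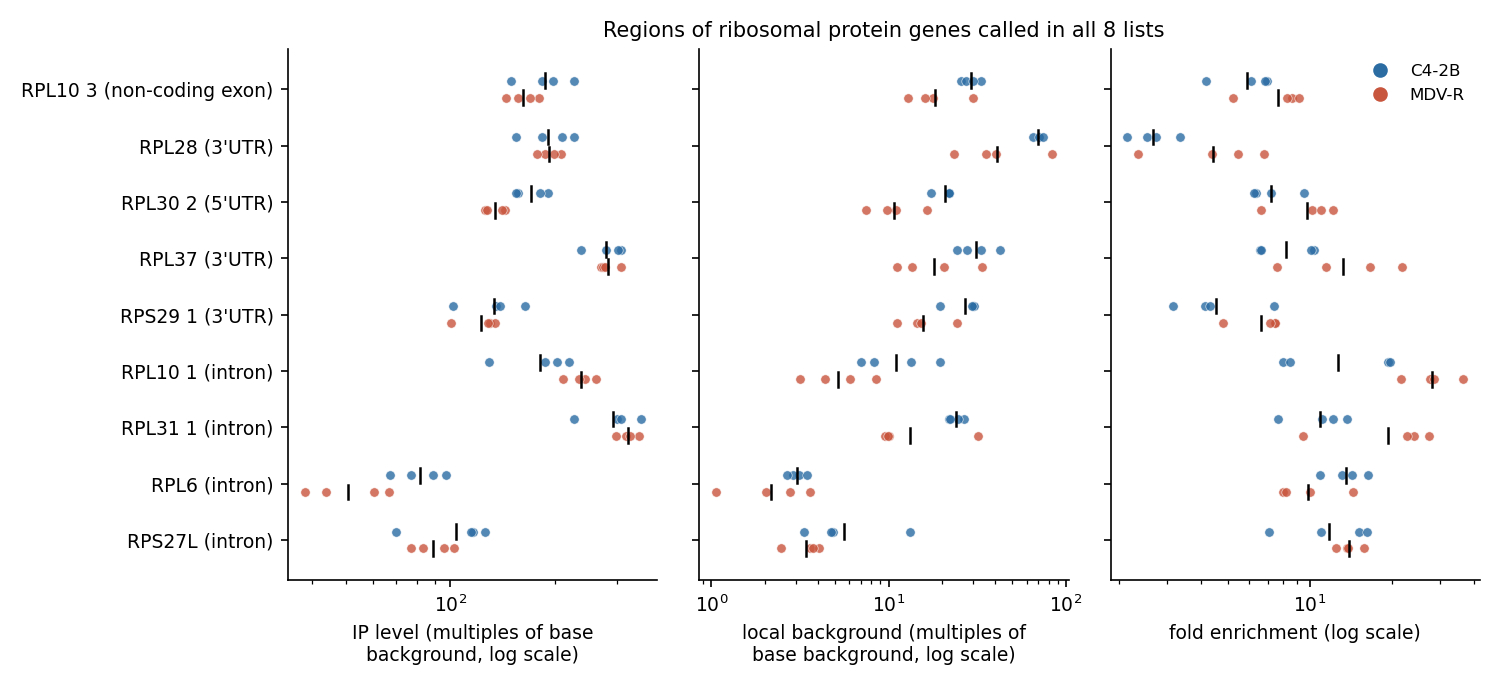
The 9 regions of ribosomal protein genes called in all 8 lists, with the IP level and the local background in multiples of the base background and the fold enrichment (x, all log scales); points are libraries (C4-2B blue, MDV-R red) and black ticks geometric means of 4. The RPL6 region has lower IP levels in MDV-R (38.2 to 66.6, beside 67.1 to 97.3), and the first RPL10 region has higher fold enrichments in MDV-R (21.5 to 36.5, beside 7.97 to 19.6).

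Members were short genes by features that the name rule did not use. The median canonical mRNA of the members had 785 nt, beside 2885 nt for all protein-coding genes, the median longest exon 282 nt beside 1465 nt, and the median 3′UTR 161 nt beside 1022 nt. The median mRNA held 3 GGAC cores beside 11, which was 2.95 per kb beside 3.76 per kb, and 5 members held none. Among members with an mRNA under 1000 nt, 7 of 47 had an exonic peak (14.9%, Wilson interval 7.41 to 27.7%), beside 19.1% of 2070 other genes of that length. At 1000 nt or more it was 11 of 34 members (32.4%, Wilson interval 19.1 to 49.2%), beside 53.9% of 17882 other genes. With a longest exon under 400 nt it was 4 of 44 members (9.09%, Wilson interval 3.59 to 21.2%), beside 20.5% of 2385 other genes. The other genes were not filtered by expression, and those with too few reads for a call count in these shares. Expression was not matched, so the shares of members and of other genes are not like for like. These lengths are of the canonical mRNA, while a peak counted on any transcript. RPL30, RPS24 and RPS29, in both short groups, had no peak on the canonical mRNA. Of the members with short exons, RPL36 had a peak there, in MDV-R 4 alone. Members with a peak had a median mRNA of 1330 nt, and those without of 772 nt.

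Sequence shared with other places in the genome was common in the members. Ribosomal protein genes have many processed pseudogenes, and only uniquely mapped reads entered the lists. In the median member 28.1% of the 50-mers of the canonical mRNA occurred elsewhere in the genome, and in the median protein-coding gene 0%. With 100-mers the median member share was 4.45%. Members with an exonic peak had a median of 12.6% and those without 34.2%. Above 50% lay 25 members, and of these RPL29 and RPL41 had an exonic peak. RPL21 had a copy of every 50-mer elsewhere (100%), and RPS3A of 98.2%, and neither had a peak. RPL38 and RPL35A had a copy of 0% and 0.253% of their 50-mers and had no peak either. The part of read uniqueness in the scarcity of peaks was not tested.

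**Figure D5:**
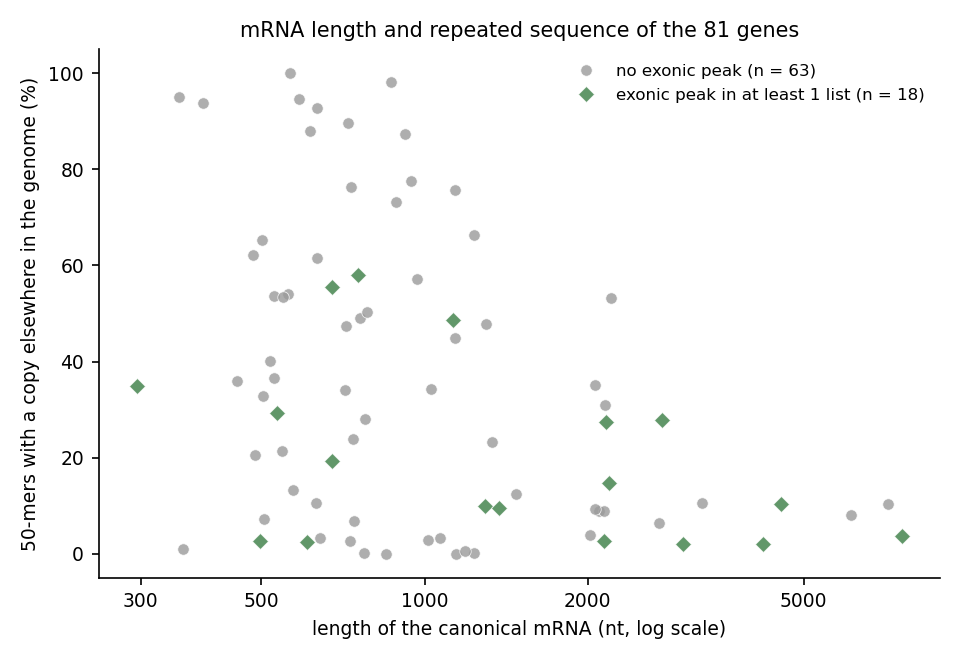
Each point is 1 of the 81 ribosomal protein genes, with the length of its canonical mRNA in nt (x, log scale) and the percentage of its 50-mers that occur elsewhere in the genome (y). Green diamonds are the 18 genes with an exonic peak in at least 1 list (medians 1330 nt and 12.6%) and grey circles the 63 without (772 nt and 34.2%).

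Genes close to the members in function gave other shares and had longer median mRNAs. Ribosome biogenesis factors, which assemble the subunits in the nucleolus, had an exonic peak in 19 of 25 genes (76%), and mitochondrial ribosomal proteins in 42 of 78 (53.8%). Other TOP mRNAs had a peak in 8 of 16 genes (50%), with EEF1D, EEF2 and EIF3F called in all 8 lists, and EEF1A1 and PABPC1 in none. The RPS6 kinases had a peak in 7 of 10 genes (70%). In this order the Wilson intervals were 56.6 to 88.5%, 42.9 to 64.5%, 28.0 to 72.0% and 39.7 to 89.2%. The median canonical mRNAs of these sets had 2428, 1242, 3335 and 5466.5 nt, beside 785 nt for the members. The part of mRNA length in these shares was not tested. Of the paralogs left out by the rule RPL7L1 was called in all 8 lists, and RPL22L1 and RPL26L1 in none.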

How the data were processed

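MeRIP-seq of C4-2B and MDV-R cells was compared in 4 replicates per line, grouped by the cell line field of the labels. Per the methods, the authors mapped reads with STAR 2.7.0 on hg38 and an earlier GENCODE release. They retained unique alignments free of duplicates (SAMtools 1.10) and called peaks per IP library with MACS2 (3.0.0a6, per the labels) against input. Each peak in the deposited lists has a fold enrichment, which is the ratio of IP pileup over local background, a −log10 p and −log10 q, and a score of 10 times the −log10 q, rounded down. A merged list made by the authors gives 36970 regions without values, and its merging is not stated.

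IP tags and local background at each summit were solved from the deposited fold enrichment and −log10 p, and 98.8 to 100% of summits per list came out whole to within 0.02 tags, beside 4.41 to 5.43% under a wrong scale. The stated extension of 100 nt and genome size of 300 Mb were contradicted by these values, which implied fragments of 239 to 293 nt, so total depth is unknown, and levels are multiples of each list's base background in place of the planned depth-scaled counts.

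Summits were classed with GENCODE 44 (coding sequence before 3′UTR, 5′UTR, non-coding exon and intron; all transcripts; no strand). Only sense GGAC within 50 nt of a summit was counted as present. Sequences are from the hg38 genome. The share of repeated 50-mers was counted over both strands of the genome. The members and lists were chosen with earlier results of these data known. Named genes were members with a region in all 8 lists or in 1 line only, then by mean percentile of −log10 p, and the first 15 without a peak by name. Some named items are not reported here.

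Counts per list were compared with exact permutation tests over 70 arrangements. Regions in all 8 lists (9224, or 9327 for fold enrichment) were compared with limma 3.58.1 (R 4.3.3) on log2 values, with Benjamini-Hochberg adjustment over all of them and a threshold of 0.05. On simulated data with changes of 1 on the log2 scale, limma recovered 94% for IP level, 2% for local background and 12% for fold enrichment. At 2 on the log2 scale it recovered 100%, 56% and 90%. Overlaps were found with bedtools 2.31.1 and tests with scipy 1.17.1. Tried as alternatives were −log10 q of 5 or more, lists cut to the length of the shortest, other definitions of a hit, of members, motif, window and regions, centring, an exact permutation test per region, the replicate number as a block and leaving out each library. A literal reading of the name rule, which adds RPS19BP1 and the readthrough loci, was chosen after seeing the data. The authors' differential test and all read counts were not used here.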

Additional observations from a re-analysis of the deposited data

Results flagged for a closer look

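Of 64 groups of 4 libraries examined, 8 (12.5%) had a highest or lowest library that stood apart from the rest by Dixon's criterion for groups of 4, where chance gives about 1 in 20 (5%). The share of member summits with GGAC was 63.6% in C4-2B 2, beside 33.3 to 38.5% in the other C4-2B lists. MDV-R 4 had 16 members with an exonic peak, beside 10 or 11 in the other MDV-R lists. Local background was low in C4-2B 2 for RPL30 (17.3 times the base) and for the first RPS29 region (19.5), and high in C4-2B 4 for RPS27L (13.1) and in MDV-R 3 for the first RPL31 region (31.9). The first RPS29 region also had the lowest IP level of its line in MDV-R 4 (100.4 times the base) and the lowest fold enrichment of its line in MDV-R 3 (4.81). What set these libraries apart was not tested.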

How the results depend on the processing

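The difference in the share of members and of all genes with an exonic peak ran between -29.4 and -22.5 percentage points over 9 alternatives and between -26.2 and -25.1 with each library left out. The intronic share of members was higher by 9.24 points with peaks in another gene's exon left out, by up to 31.3 over the 5 alternatives, and by 20.2 to 21.6 with each library left out. Differences between the lines in counts and in the share of peaks (0.00324 to 0.0227 points) kept their direction and missed the threshold under 10 alternatives each, with the literal name rule among them, and with each library left out (2.42 to 4.92 peaks, 1.08 to 3.08 genes and 0.00148 to 0.00741 percentage points of all peaks). The GGAC difference changed sign, to 0.626 points with readthrough loci added, 0.890 without name paralogs and 2.54 with a 25 nt window, and was -6.26 to -1.67 with each library left out. Member regions in 1 line only numbered 1 without those shared with another gene's exon and 2 to 4 with each library left out (4 without C4-2B 1 or MDV-R 3).

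Of the 9 regions, those passing in IP level were 4 after centring and 1 to 4 with each library left out (4 without C4-2B 1). Without C4-2B 1, 1708 higher and 2239 lower of all 9224 regions passed. The exact permutation test per region could pass no region in any measure, since its smallest possible p stayed above the threshold after adjustment. In local background 1 passed with readthrough loci added and 0 to 7 with each library left out (7 without MDV-R 3). In fold enrichment 0 passed after centring and 0 to 4 with each library left out (4 without MDV-R 3). Without MDV-R 3, 139 higher and 2921 lower of all 9224 regions passed in local background. In fold enrichment 2016 higher and 74 lower of all 9327 did. Over all regions centring moved the calls in IP level from 1806 higher and 1345 lower to 2303 and 2297, and in local background from 153 and 1037 to 553 and 628. Log2 differences changed sign for RPL28 in IP level (-0.0499 centred, -0.0948 to 0.0888 with each library left out), RPL37 in IP level (-0.0464 centred, -0.0704 to 0.0583), RPL6 in local background (0.00716 centred), RPS27L in fold enrichment (-0.16 centred, -0.00360 to 0.393 with each library left out, below 0 without C4-2B 4) and the exonic RPL10 region in fold enrichment (-0.0267 centred). RPL6 in IP level had an adjusted p of 0.0903 by the exact permutation test per region, which cannot decide its call. The cause of these changes was not tested.

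With the replicate number as a replicate block, 2 of the 9 regions passed in IP level, where the intronic RPL10 region joined RPL6 (limma adjusted p = 0.0399), and no other call changed. The differences in counts were 2.5 genes (exact sign-flip permutation p = 0.5), 4 peaks (p = 0.375) and 0.00454 percentage points (p = 0.5). Deviations of same-numbered libraries correlated between -0.0749 and 0.0443 and in 0 of 12 pairs above 0.1. Such values cannot exclude that libraries with the same number were handled together. Over all regions the block moved the calls in IP level from 1806 higher and 1345 lower to 2019 and 1495. In simulated data changes of 1 on the log2 scale were recovered for 2% of regions in local background, and the part of depth in this was not tested.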

Other observations

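Processed pseudogenes of ribosomal protein genes, which are intronless copies of their mRNAs scattered over the genome, also held peaks. A summit lay in 57 of 1496 such pseudogenes (3.81%, 95% Wilson interval 2.95 to 4.90%) in at least 1 list, with 239 summits in all, and 14 pseudogenes were called in all 8 lists. Another gene had an exon at 86 of the 239 summits, and 40 of the 57 pseudogenes shared no summit with another exon. The parent gene had no exonic peak of its own for 47 of the 57, where 63 of all 81 members had none. RPL23P2 and RPL18P13, for example, were called in all 8 lists with median fold enrichments of 15.6 and 14.8 over backgrounds of 2.59 and 5.53 times the base, while RPL23 and RPL18 had no exonic peak. Members had a median of 12 processed pseudogenes by name, and 73 of the 81 had at least 1. Whether reads at these places came from the pseudogene, from a host transcript or from the parent mRNA was not tested.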
